A study of Homo sapiens with 42 samples.

Results

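This account covers the chromatin loops around VWF and CD9, neighbouring genes on human chromosome 12. A loop was taken as a member when at least 1 of its anchors started between positions 5700000 and 6500000 of chromosome 12. The rule uses position and no measured value, though it was chosen with earlier results of these data known. Of 33914 loops in the deposited table, 15 met it, 11 with both anchors in the window and 4 with 1. The loops were counted by in situ Hi-C, which ligates neighbouring DNA ends in fixed nuclei and sequences the joined pairs, in K562, 1 established human leukemia cell line labelled wild type. All samples were cultured in RPMI with 10% FBS and carry the label of the phorbol ester PMA, at 25 nM, for 0 h, 6 h or 72 h, which drives these cells towards a megakaryocyte-like state. The medium was changed after 24 h and 48 h, and the 0 h samples are the control. Each time had 4 biological replicates in 14 samples, and technical replicates were summed into 12 libraries. No label says whether replicates came from separate cultures, so p-values measure the spread between these libraries, which may be technical.

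VWF encodes von Willebrand factor, the adhesive protein that megakaryocytes store in alpha granules and that tethers platelets to injured vessel walls. CD9 encodes a tetraspanin, a small membrane protein that organises partner proteins such as integrins at the surface of platelets and megakaryocytes. Chromatin loops bring distant stretches of a chromosome together; many are held by CTCF and cohesin, and some join promoters to enhancers. Hi-C measures contacts and not expression, so these data hold no level of VWF or CD9 RNA and no marker by which the cell type could be checked.

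In GRCh38, VWF spans 5948877 to 6124670 and CD9 spans 6199946 to 6238266. The 15 loops used 21 anchors of 10 kb, 7 of which served more than 1 loop. VWF was covered by 5 anchors, all within the gene body, and 0 anchors held either end of VWF. CD9 had anchors at its 5′ end: the anchor that starts at 6190001 held its first RefSeq start site, 6199946, and the adjoining anchor that starts at 6200001 held the start sites 6200400 and 6200842. Of the 12 protein-coding genes with an end in the window, 6 had an end in an anchor. Loop length ran from 40 kb to 630 kb with a median of 220 kb, against 440 kb over all loops of the table.

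**Figure D1:**
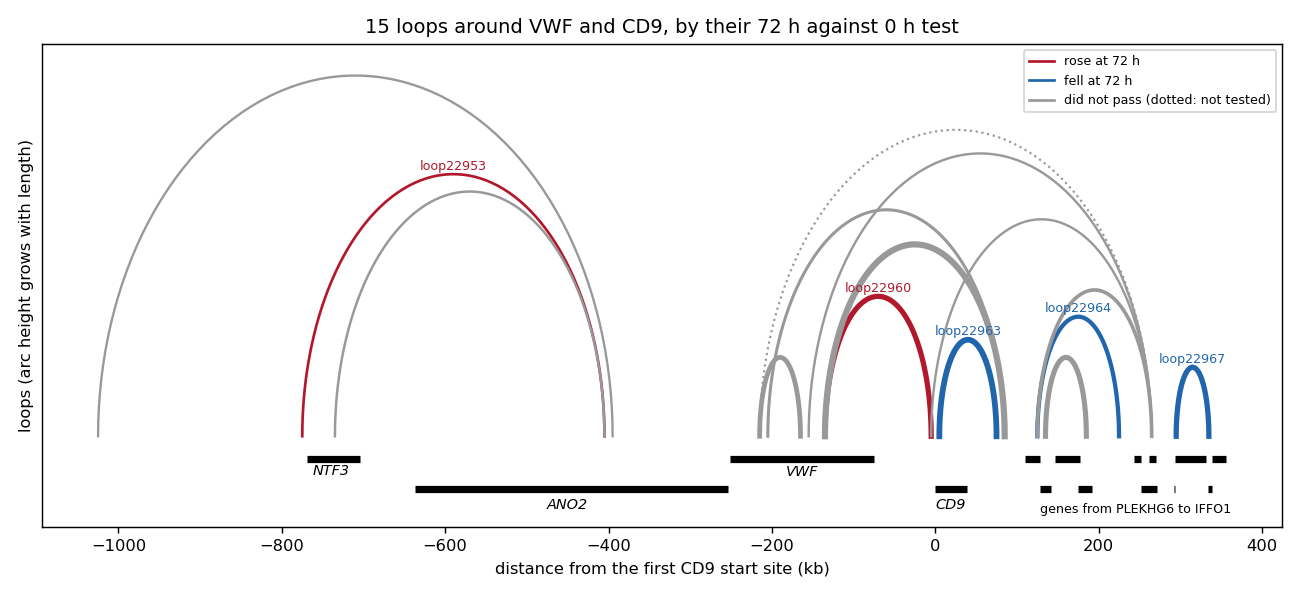
Map of the 15 loops, drawn as arcs between the centres of their anchors, with the distance from the first CD9 start site in kb on the x axis and gene bodies as black bars; line width grows with the mean normalized count and arc height with length. Of the 14 tested loops, 2 rose at 72 h (red) and 3 fell (blue), all 3 of the latter with both anchors from the later CD9 start sites onward.

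The border between the adjoining anchors falls between CD9's start sites, and with anchors of 10 kb no contact can be placed at a start site itself. At 72 h 1 of the 2 loops before it rose (loop22960, while loop22962 did not pass), and the loop after it, loop22963, fell, though the call was lost with several settings. The 250 bases before the first start site on each side are therefore shown, from the RefSeq promoter table of GRCh38.p14, 5′ to 3′ on the plus strand, with each GGGCGG (the GC box, bound by Sp-family factors; CCGCCC on the other strand) in capitals.
CD9 upstream window at chr12:6199696-6199945: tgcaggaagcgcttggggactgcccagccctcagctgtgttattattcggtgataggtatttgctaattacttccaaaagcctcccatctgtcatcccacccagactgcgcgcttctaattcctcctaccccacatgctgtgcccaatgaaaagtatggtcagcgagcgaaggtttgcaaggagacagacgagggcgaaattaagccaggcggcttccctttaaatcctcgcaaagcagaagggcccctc
CD9 upstream window at chr12:6200150-6200399: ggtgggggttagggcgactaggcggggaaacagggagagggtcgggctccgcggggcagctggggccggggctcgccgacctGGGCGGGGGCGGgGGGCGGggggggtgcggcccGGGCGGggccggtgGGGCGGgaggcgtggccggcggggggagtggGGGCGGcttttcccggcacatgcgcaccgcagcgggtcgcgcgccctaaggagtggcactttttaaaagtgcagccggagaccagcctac
The first window held 0 GC boxes and 52.8% G and C, and the second held 6 GC boxes and 76.8% G and C. The window of the other start site in that anchor, 6200842, not printed here, held 3 GC boxes. A GC box was present in 42.6% of all 35116 windows of that length. Neither window held the AP-1 motif TGANTCA on either strand, which was present in 6.57% of all windows. The motif AGATAA of GATA factors was also in neither, with 9.17% of all windows holding it. The same was true of CCGGAA, the core of ETS factor sites, held by 14.5% of all windows. A match or its lack describes the letters alone.

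The loop with the smallest adjusted p of the 3 that fell has an anchor that starts at 6490001 and holds a pair of start sites pointing away from each other. They belong to MRPL51, a protein of the mitochondrial ribosome, and NCAPD2, a subunit of the condensin I complex. Their upstream windows, chosen after the values were seen, follow on the strand of each gene, with GGGCGG and CCGGAA and their reverse complements CCGCCC and TTCCGG in capitals.
MRPL51 upstream window, minus strand, at chr12:6493263-6493512: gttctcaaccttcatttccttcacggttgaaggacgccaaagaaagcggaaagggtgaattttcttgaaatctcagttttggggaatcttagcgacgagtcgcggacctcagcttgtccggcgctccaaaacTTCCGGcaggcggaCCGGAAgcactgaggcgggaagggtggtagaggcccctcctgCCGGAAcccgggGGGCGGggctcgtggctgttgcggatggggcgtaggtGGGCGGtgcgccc
NCAPD2 upstream window, plus strand, at chr12:6493852-6494101: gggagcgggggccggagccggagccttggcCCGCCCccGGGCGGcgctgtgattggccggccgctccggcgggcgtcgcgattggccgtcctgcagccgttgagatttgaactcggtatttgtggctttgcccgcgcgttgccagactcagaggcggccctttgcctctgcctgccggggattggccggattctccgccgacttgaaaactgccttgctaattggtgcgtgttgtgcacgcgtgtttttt
The MRPL51 window held 3 matches to CCGGAA and 2 GC boxes, and the NCAPD2 window held 0 and 2.

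Of the 15 loops, 14 had enough contacts for a test, among 24132 tested in the whole table, and 9782 loops were put aside. Libraries held 736929 to 1472197 contacts over all loops, with 0 h replicate 1 the deepest and 6 h replicate 3 the shallowest. The 72 h replicates 3 and 4 agreed within sampling noise over the table (ratio of chi-square to its degrees of freedom 1.003, p = 0.36), unlike every other pair at 72 h. They were counted as 1 sample in every mean, so n = 3 at 72 h, and kept as 2 libraries in the fits. At 0 h and 6 h replicates 3 and 4 were also the closest pair, with ratios of 1.019 (chi-square p = 0.0205) and 1.023 (chi-square p = 0.00589). There they were kept as 2 samples. Values within replicates 1 and 2 and within replicates 3 and 4 stand beside the calls, since these pairs differ in their technical replicates (3 against 2, the latter with 2 sequencing runs each). A normalized count is the number of contacts of a loop per 1000000 contacts in tested loops, after TMM scaling, edgeR's adjustment for differing library composition. No background is taken off, so a count includes contacts that any stretches at that distance would make. In bulk cells more cells with a contact and more contacts per cell cannot be told apart. The 14 loops together held 0.0668% ± 0.0038 (SD, n = 4) of these contacts at 0 h, 0.0676% ± 0.0033 (SD, n = 4) at 6 h and 0.0675% ± 0.0030 (SD, n = 3) at 72 h. The times differed in this share by less than the spread between replicates.

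At 6 h, 0 of the 14 tested loops passed edgeR's quasi-likelihood test at an adjusted p under 0.05, where 6.41% of all tested loops passed. Before adjustment 4 of the 14 had p under 0.05, beside 4908 of the 24132. DESeq2 called 0 of the 14, beside 594 of all 33914 loops. It gave some of the 14, such as loop22953 and loop22962, no adjusted p at 6 h, so these could not be called. In 0 of the 14 did the libraries of the times lie apart, against 10.7% of all tested loops. The 6 h log2 fold change had a median of -0.04 over the 14 and 0.01 over all tested loops. At 72 h against 0 h, 5 of the 14 passed, or 35.7%, where the background was 33.6%. Of these, 2 rose and 3 fell, beside 16.7% of all tested loops that rose and 16.9% that fell. The libraries of 0 h and 72 h did not overlap in 4 of the 14, beside 28.3% of all tested loops. At 72 h the median was 0.04 over the 14 and 0.01 over all tested loops, so the locus as a whole was near the background. Between 6 h and 72 h, 1 of the 14 passed, beside 20.5% of all tested loops. It rose, as did 10.7% of all. The libraries of 6 h and 72 h did not overlap in 2, beside 19.8%.

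**Figure D2:**
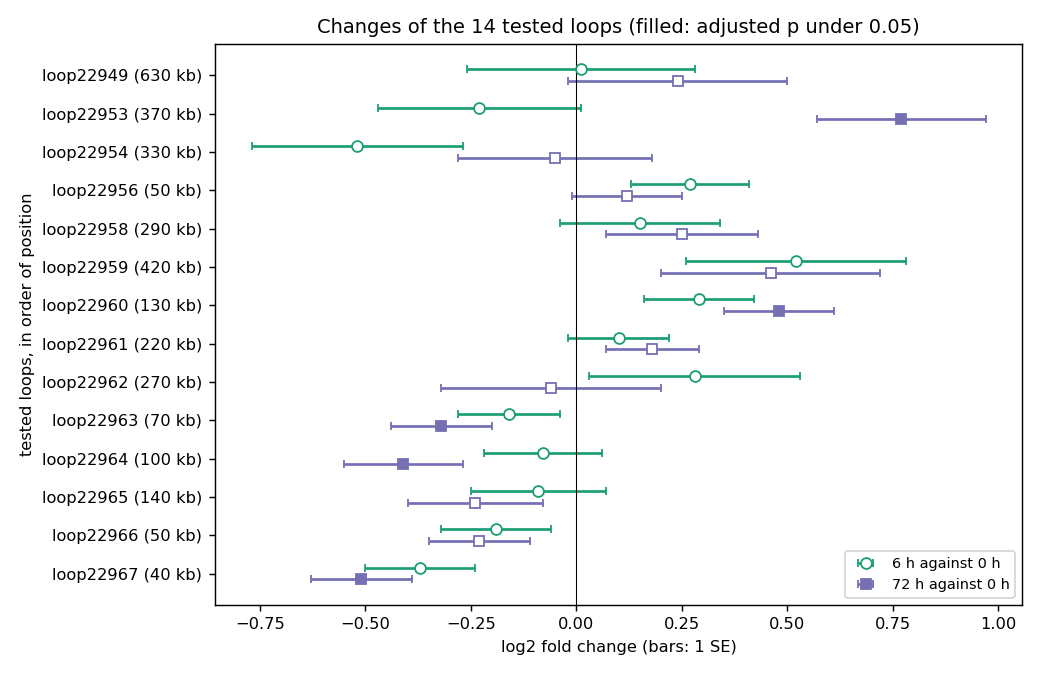
Log2 fold change (x axis) of each of the 14 tested loops, in order of position, at 6 h (circles) and 72 h (squares) against 0 h; bars are 1 SE and filled symbols passed the edgeR test at an adjusted p under 0.05. At 72 h the 5 tested loops with an anchor in VWF lay between 0.12 and 0.48, and the 5 with both anchors from the later CD9 start sites onward lay between -0.51 and -0.23; both time points share the 0 h libraries.

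The contact between the VWF body and the anchor with the first CD9 start site rose. That anchor ends at 6200000 and CD9 begins at 6199946, so most of the anchor lies before the gene. The loop, loop22960, joins this anchor with the VWF anchor that starts at 6060001, 130 kb away. Its normalized counts were 65.2, 58.9, 55.2 and 69.4 in the 0 h libraries of replicates 1 to 4, and 79.4, 60.7, 79.2 and 91.7 at 6 h. At 72 h they were 97.3, 77.3, 105 and 74.1. All 4 libraries at 72 h lay above all 4 at 0 h, and the 6 h libraries overlapped both. The means were 62.1 ± 6.33 (SD, n = 4), 77.8 ± 12.8 (SD, n = 4) and 88.1 ± 10.1 (SD, n = 3). The log2 fold change was 0.48 (SE 0.13, edgeR adjusted p = 0.0013) at 72 h, 1.40-fold, and 0.29 (SE 0.13, edgeR adjusted p = 0.19) at 6 h. Between 6 h and 72 h it was 0.19 (edgeR adjusted p = 0.27). The 72 h change was 0.47 (edgeR adjusted p = 0.037) within replicates 1 and 2 and 0.48 (edgeR adjusted p = 0.041) within replicates 3 and 4. With 72 h replicates 3 and 4 summed in the fit, this change was 0.47 (edgeR adjusted p = 0.0027).

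From the same VWF anchor, loop22961 reaches past CD9 to an anchor that starts at 6280001, over the non-coding RNA gene LOC105369625, and had the highest mean count of the locus. It measured 94.2, 79.7, 89.1 and 98.9 normalized counts at 0 h. The values were 104, 83.2, 93.4 and 109 at 6 h, and 106, 104, 93.6 and 107 at 72 h. The times overlapped. Its log2 fold change was 0.10 (SE 0.12, edgeR adjusted p = 0.70) at 6 h and 0.18 (SE 0.11, edgeR adjusted p = 0.20) at 72 h. Its mean over all libraries was above that of 95.5% of the 4026 tested loops whose length lay within 20% of its own; for loop22960 this was 74.2% of 2478. Per library, the raw count of loop22960 was 0.688 ± 0.049 (SD, n = 4) of that of loop22961 at 0 h, 0.796 ± 0.059 (SD, n = 4) at 6 h and 0.854 ± 0.099 (SD, n = 3) at 72 h. This ratio overlapped between 0 h and 72 h, with 0.692 in 0 h replicate 1 and in 72 h replicate 4.

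On the other side of the border, the loop from the anchor with CD9's later start sites fell. This loop, loop22963, spans 70 kb, covers the CD9 body and ends at an anchor that starts at 6270001, over LOC105369625 and the pseudogene ATP5MFP5. Its normalized counts were 99.9, 103, 89.1 and 98.9 at 0 h, and 104, 67.3, 86.3 and 94.1 at 6 h. At 72 h they were 73.4, 69.3, 85.3 and 86.6. The 72 h libraries lay below all 0 h libraries, by a gap from 86.6 to 89.1, and the 6 h libraries overlapped both. The means were 97.9 ± 6.17 (SD, n = 4) at 0 h, 87.9 ± 15.5 (SD, n = 4) at 6 h and 76.2 ± 8.67 (SD, n = 3) at 72 h. The log2 fold change was -0.32 (SE 0.12, edgeR adjusted p = 0.029) at 72 h, 0.803-fold, and -0.16 (SE 0.12, edgeR adjusted p = 0.46) at 6 h. Between 6 h and 72 h it was -0.15 (edgeR adjusted p = 0.41). This call did not hold with several settings: it was -0.21 (edgeR adjusted p = 0.16) with a correction for loop length, -0.26 (edgeR adjusted p = 0.065) with scaling to total counts, and had an adjusted p of 0.062 with DESeq2. Within replicates 1 and 2 it was -0.51 (edgeR adjusted p = 0.018) and within replicates 3 and 4 -0.13 (edgeR adjusted p = 0.61), and the edgeR adjusted p was 0.059 without 0 h replicate 1, 0.053 without 0 h replicate 2, 0.078 without 72 h replicate 1 and 0.095 without 72 h replicate 2.

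The pair of loops at the CD9 start sites can be set against each other within each library, where depth and scaling cancel. The raw count of loop22960 over that of loop22963 was 0.652, 0.569, 0.620 and 0.701 at 0 h, and 0.764, 0.903, 0.918 and 0.974 at 6 h. At 72 h the ratio was 1.33, 1.12, 1.23 and 0.856. Every 0 h library lay below every 6 h and 72 h library, and 72 h replicate 4 overlapped the 6 h libraries. The means were 0.636 ± 0.055 (SD, n = 4), 0.890 ± 0.089 (SD, n = 4) and 1.16 ± 0.15 (SD, n = 3). The pair was chosen after its values were seen, so no test is given. The loops share no anchor, and a ratio shows unequal change, not which of them changed. Length does not cancel, as loop22960 spans 130 kb and loop22963 spans 70 kb. Over the table, tested loops of 30 kb to 100 kb had a median log2 fold change of -0.11 at 6 h and -0.18 at 72 h. Those of 110 kb to 330 kb had -0.02 and -0.05. The part of length in the ratio was not tested.

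**Figure D3:**
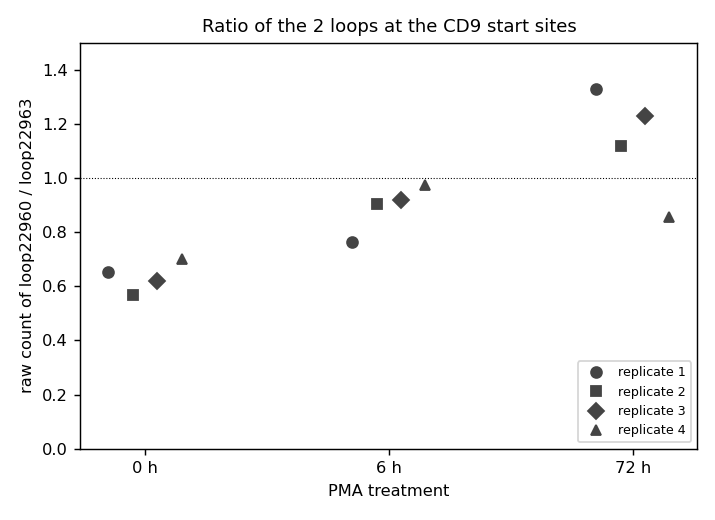
Raw contacts of loop22960 (VWF body to the first CD9 start site) divided by those of loop22963 (later CD9 start sites to the non-coding RNA gene beyond CD9) on the y axis, in each of the 4 libraries at 0 h, 6 h and 72 h of PMA; the dotted line marks equal counts. The 0 h libraries lie between 0.569 and 0.701, the 6 h libraries between 0.764 and 0.974 and the 72 h libraries between 0.856 and 1.33.

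Another loop at CD9, loop22962, runs from the first start site to an anchor that starts at 6460001, which holds an end of VAMP1, a vesicle fusion protein, and lies within TAPBPL, a chaperone-like protein for MHC class I. It was weak for its length of 270 kb, above only 4.97% of 4487 tested loops of similar length. It had 10.1, 9.49, 15.1 and 14.8 normalized counts at 0 h, 15.7, 15.9, 12.7 and 14.5 at 6 h, and 12.4, 11, 9.36 and 12.5 at 72 h. The 72 h libraries all lay below the 6 h libraries and overlapped those of 0 h. On the log2 scale the change was 0.28 (edgeR adjusted p = 0.59) at 6 h, -0.06 (edgeR adjusted p = 0.89) at 72 h and -0.33 (edgeR adjusted p = 0.37) between 6 h and 72 h.

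The remaining tested loops with an anchor in VWF did not pass the test. A loop inside the gene, loop22956, joins anchors that start at 5980001 and 6030001. It had 65.9, 54.1, 50.2 and 67.1 normalized counts at 0 h, 80.4, 76.6, 69.3 and 62.7 at 6 h and 59.3, 73.3, 48.9 and 78.6 at 72 h. The times overlapped, and the log2 fold change was 0.27 (SE 0.14, edgeR adjusted p = 0.23) at 6 h and 0.12 (SE 0.13, edgeR adjusted p = 0.52) at 72 h. A longer loop, loop22958, links VWF, at 5990001, to the anchor beyond CD9 that loop22961 also uses. It measured 24.6, 20.9, 33.9 and 23.9 normalized counts at 0 h, 28.4, 29.9, 18.4 and 35.0 at 6 h and 30.1, 31.1, 29.1 and 31.2 at 72 h, which on the log2 scale is a difference of 0.15 (edgeR adjusted p = 0.71) at 6 h and 0.25 (SE 0.18, edgeR adjusted p = 0.30) at 72 h. Its libraries at 72 h were close together and lay within the range of both earlier times.

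VWF also contacted the VAMP1 anchor at 6460001 by a pair of long, weak loops. The first, loop22959, starts in VWF at 6040001 and had 7.24, 14.2, 7.53 and 11.4 normalized counts at 0 h, 9.80, 15.9, 18.4 and 18.1 at 6 h and 8.85, 14.1, 18.7 and 17.0 at 72 h. The times overlapped, and the log2 fold change came to 0.52 (SE 0.26, edgeR adjusted p = 0.25) at 6 h and 0.46 (SE 0.26, edgeR adjusted p = 0.16) at 72 h. The second, loop22957, starts at 5980001 and was put aside for low counts. It had 9, 6, 3 and 6 raw contacts at 0 h, 11, 9, 4 and 6 at 6 h and 18, 9, 9 and 17 at 72 h, that is 24, 30 and 53 in all. Scaled to depth these were 5.70 ± 1.38 (SD, n = 4), 8.02 ± 2.16 (SD, n = 4) and 12.4 ± 3.45 (SD, n = 3) normalized counts, and the 72 h libraries lay above the 0 h libraries. With no filter on low counts its log2 fold change at 72 h was 0.84 (SE 0.29, edgeR adjusted p = 0.018), and DESeq2, also run without that filter, gave 1.06 with an adjusted p of 0.075. Of 26 settings, 14 gave this loop a value at 72 h, from 0.80 to 1.06. Leaving out 72 h replicate 1 or 4, its highest libraries, gave no value, as the loop then fell under the filter. Which settings held a value thus depended on high 72 h counts, so how many passed is no support for a rise. Within replicates 1 and 2 the value was 0.85 (edgeR adjusted p = 0.12).

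**Figure D4:**
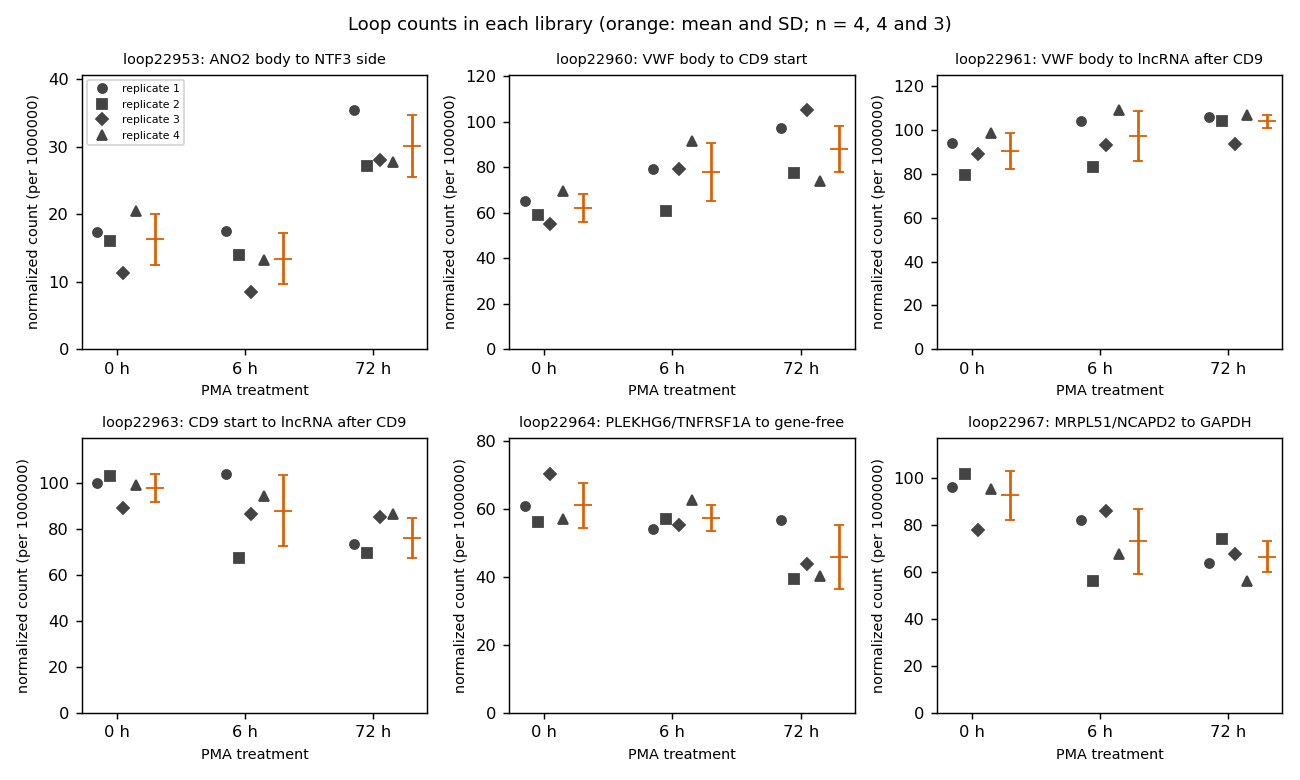
Normalized counts (y axis, contacts per 1000000 in tested loops, from 0) of 6 loops in each library at 0 h, 6 h and 72 h, with a symbol for each replicate; orange bars are the mean and SD (n = 4, 4 and 3, with 72 h replicates 3 and 4 taken as 1 sample). The 72 h libraries lie above all 0 h libraries in loop22953 and loop22960 and below them in loop22963 and loop22967, and overlap them in loop22961 and loop22964.

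Beyond CD9 the neighbouring genes include some that encode receptors or housekeeping proteins. The loop that fell most, loop22967, spans 40 kb along NCAPD2, from the MRPL51 and NCAPD2 start sites shown above to an anchor that starts at 6530001. That anchor holds the NCAPD2 end, GAPDH, a glycolytic enzyme, and an end of IFFO1. The loop had 96.3, 102, 77.8 and 95.5 normalized counts at 0 h, 82.4, 56.1, 86.3 and 67.6 at 6 h and 63.7, 74.3, 67.6 and 56.2 at 72 h. All 72 h libraries lay below all 0 h libraries, and the 6 h libraries overlapped both. The means were 92.8 ± 10.4 (SD, n = 4), 73.1 ± 13.9 (SD, n = 4) and 66.6 ± 6.69 (SD, n = 3). The log2 fold change was -0.51 (SE 0.12, edgeR adjusted p = 0.00053) at 72 h, 0.702-fold, and -0.37 (SE 0.13, edgeR adjusted p = 0.055) at 6 h. The 6 h change passed in 3 of 12 fits that left out a library. In these the edgeR adjusted p was 0.035 without 0 h replicate 3, 0.041 without 6 h replicate 1 and 0.029 without 6 h replicate 3. Without 6 h replicate 2 the change was -0.25 (edgeR adjusted p = 0.32). It passed in 4 of 13 other alternatives, and was -0.22 (edgeR adjusted p = 0.34) with the length correction and -0.19 (edgeR adjusted p = 0.70) within replicates 3 and 4. The 72 h change was -0.52 (edgeR adjusted p = 0.015) within replicates 1 and 2, -0.49 (edgeR adjusted p = 0.037) within replicates 3 and 4, and -0.32 (edgeR adjusted p = 0.034) with the length correction.

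A loop of 100 kb, loop22964, leaves the anchor at 6320001, which holds ends of PLEKHG6 and of TNFRSF1A, the tumour necrosis factor receptor 1. Its other anchor, at 6420001, held no gene end. It had 60.8, 56.0, 70.3 and 56.9 normalized counts at 0 h, 53.9, 57.0, 55.2 and 62.7 at 6 h and 56.6, 39.2, 43.7 and 40.2 at 72 h. The 72 h libraries were low except replicate 1, which lay within the 0 h range. The means were 61.0 ± 6.52 (SD, n = 4), 57.2 ± 3.89 (SD, n = 4) and 45.9 ± 9.39 (SD, n = 3). The log2 fold change was -0.41 (SE 0.14, edgeR adjusted p = 0.017) at 72 h and -0.08 (edgeR adjusted p = 0.80) at 6 h. At 72 h it was -0.28 (edgeR adjusted p = 0.30) within replicates 1 and 2 and -0.57 (edgeR adjusted p = 0.033) within replicates 3 and 4. Without 0 h replicate 3 the edgeR adjusted p was 0.054, without 72 h replicate 2 it was 0.056 and without 72 h replicate 4 it was 0.060. From the same anchor, loop22965 to the VAMP1 anchor stood at -0.24 on the log2 scale at 72 h (edgeR adjusted p = 0.24). Inside the receptor genes, loop22966 joins the TNFRSF1A body to a start site of LTBR, the lymphotoxin beta receptor; the value there was -0.23 (edgeR adjusted p = 0.14).

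On the far side of VWF, loop22953 had the largest rise among the 14 tested loops. It spans 370 kb from the body of ANO2, a calcium-activated chloride channel next to VWF, to an anchor at 5420001 that ends just before NTF3, the gene of neurotrophin-3. It had 17.4, 16.1, 11.3 and 20.5 normalized counts at 0 h, 17.6, 14, 8.49 and 13.3 at 6 h and 35.4, 27.1, 28.1 and 27.7 at 72 h. All 72 h libraries lay above all libraries of both earlier times. The means were 16.3 ± 3.81 (SD, n = 4), 13.4 ± 3.77 (SD, n = 4) and 30.1 ± 4.57 (SD, n = 3). The log2 fold change was 0.77 (SE 0.20, edgeR adjusted p = 0.0013) at 72 h, 1.71-fold, and -0.23 (SE 0.24, edgeR adjusted p = 0.64) at 6 h. Between 6 h and 72 h it was 1.01 (SE 0.22, edgeR adjusted p = 0.00023). Within replicates 1 and 2 the 72 h change from 0 h was 0.82 (edgeR adjusted p = 0.017), and within replicates 3 and 4 it was 0.71 (edgeR adjusted p = 0.079).

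From the same ANO2 anchor, loop22954 is 40 kb shorter than loop22953 and ends inside NTF3. Its values on the log2 scale were -0.52 (SE 0.25, edgeR adjusted p = 0.21) at 6 h and -0.05 (edgeR adjusted p = 0.90) at 72 h. The longest loop, loop22949, starts in the adjoining ANO2 anchor and stood at 0.24 on that scale at 72 h (edgeR adjusted p = 0.50).

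The values at 72 h differed in sign along the chromosome. At 72 h the 5 tested loops with an anchor in VWF had log2 fold changes from 0.12 to 0.48, all above 0, with 1 past the threshold. The 5 loops with both anchors from 6200001 onward had values from -0.51 to -0.23, all below 0, with 3 past the threshold. Outside the window, 3 of 12 tested loops within 1 Mb before it rose and 0 fell, with a median of 0.24. Within 1 Mb after it, 0 of 14 rose and 6 fell, with a median of -0.27. That is 25.0% and 42.9% that passed, beside 33.6% of all tested loops, of which 16.7% rose and 16.9% fell. The lengths of these outside loops were not compared. Length moved with position: the 5 loops from 6200001 onward spanned 40 kb to 140 kb, and the 5 at VWF 50 kb to 420 kb. Over the whole table, tested loops of 30 kb to 100 kb had a median of -0.18 at 72 h, with 410 that rose and 1200 that fell of 3310, and those of 110 kb to 330 kb one of -0.05. With the length correction, loop22967 and loop22964 (edgeR adjusted p = 0.048) still passed and loop22963 did not. These groupings were made after the values were seen and carry no test.

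Loops at genes that work with VWF or CD9 were counted from lists of genes, outside the locus. Of 25 genes of VWF partners and alpha granules, 8 had a tested loop with a gene end in an anchor, 9 loops in all. At 72 h 2 of the 9 rose and 5 fell, 77.8% beside the background of 33.6%, with a median log2 fold change of -0.33. The loop at ITGA2, a collagen receptor subunit, rose by 1.27 (SE 0.14, edgeR adjusted p = 4.9e-14), and that at THBS1, the alpha granule protein thrombospondin 1, rose by 0.73 (SE 0.14, edgeR adjusted p = 6.2e-06). The 5 that fell were at ITGB3, a subunit of the platelet fibrinogen receptor (-0.91), VPS33B, needed for alpha granule formation (-0.61), F8, the coagulation factor that VWF carries (-0.49), NBEAL2, also needed for alpha granules (-0.43), and ADAMTS13, the protease that cuts VWF (-0.33). The 5 that fell spanned 40 kb to 90 kb. Of all 3310 tested loops of 30 kb to 100 kb, 48.6% passed at 72 h, 410 that rose and 1200 that fell. The part of length in the count was not tested. A loop says nothing of the direction in which a gene's RNA moved. At 6 h 1 of the 9 rose and 3 fell, beside 6.41% of all tested loops that changed. Over the alternatives this count ran from 0 to 5, and from 5 to 7 at 72 h. The whole table moved too, from 213 to 1938 loops called at 6 h and from 3973 to 8897 at 72 h. DESeq2 gave 2 at 6 h, beside 594 of all 33914 loops. So did the fits that left out 1 of the 0 h libraries of replicates 1, 3 and 4 or the 6 h library of replicate 2. These called 709 to 1247 loops over the table.

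Of 32 genes of tetraspanins and CD9 partners, 12 had a tested loop outside the locus, 22 loops in all. At 72 h 5 rose and 4 fell, 40.9%, near the 33.6% of all tested loops, with a median log2 fold change of 0.11. Loops rose at TSPAN9 (0.86), TSPAN5 (0.76 and 0.56), TSPAN18 (0.46) and CD63, a tetraspanin of granule membranes (0.30). Loops fell at TSPAN4 (-0.86), ITGB1, the integrin beta 1 subunit (-0.56), TSPAN18 (-0.49) and TSPAN1 (-0.32), so TSPAN18 had loops in both directions. The count was 4 with DESeq2, where 5055 of all 33914 loops were called, and 5 without 0 h replicate 1, where 6554 of 24815 were. Fits on replicates 1 and 2 alone gave 5, beside 4947 of 25175 loops, and on replicates 3 and 4 alone 2, beside 3973 of 23248. At 6 h 1 of the 22 loops changed, or 4.55% beside 6.41% of all. It lies at TSPAN32 and rose by 0.84 (SE 0.19, edgeR adjusted p = 0.0020), and from 6 h to 72 h it fell by 1.04 on the log2 scale (edgeR adjusted p = 2.9e-05). That count was 0 with DESeq2, beside 594 of 33914 loops, and 0 without 6 h replicate 2, beside 868 of 24592. It was 2 without 0 h replicate 1, beside 709 of 24815 loops, and without 0 h replicate 4, beside 1247 of 25014.

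The loops whose levels moved most like the strongest loop at each gene were sought among 16034 tested loops with a mean of at least 20 raw contacts, by Pearson's r over the 12 libraries. For loop22961 at VWF they were loop20850 on chromosome 10 (r = 0.90), loop13034 on chromosome 5 with an end of NEURL1B (r = 0.89) and loop12609 on chromosome 5 (r = 0.85). For loop22963 at CD9 they were loop13359 on chromosome 6 with an end of MYLIP (r = 0.93), loop16595 on chromosome 7 (r = 0.91) and loop18341 on chromosome 8 (r = 0.91). These are the highest of many correlations over libraries that share their time points and depth, and describe these libraries alone.

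In the authors' deposited table, 12 of the 15 loops had a log2 fold change and 10 an adjusted p. It classed 1 as gained, loop22953, with a log2 fold change of 0.66 at 72 h and an adjusted p of 0.011, and the other 14 as static. For loop22960 the authors' deposited table gave 0.45 and an adjusted p of 0.064, and for loop22967 it gave -0.39 and 0.092. For loop22963 and loop22964 the authors' deposited table gave -0.23 and -0.29, with adjusted p of 0.40 and 0.28. Over all loops it classed 1000 as gained and 503 as lost.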

How the data were processed

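Contacts between loop anchors were measured by in situ Hi-C in 42 samples. The authors deposited 1 table of raw counts; per the file headers its 30 count columns are the technical replicates, and 0 columns belonged to other samples. The submitters' processing notes name Juicer 1.5.6, DESeq, DESeq2 and hg38, without their roles; the loop caller is not given in the sources used here. The authors also deposited log2 fold changes and an adjusted p-value, which was the same in both of its columns. Anchor positions, the other values in the deposited table, were counted from 0 and are given here from 1.

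Technical replicates were summed into 12 libraries. edgeR 4.0.16 in R 4.3.3 fitted all of them in 1 model with no covariate (filterByExpr with minimum count 10 and minimum total 15, TMM, quasi-likelihood test, prior count 2, Benjamini-Hochberg adjustment over 24132 loops, threshold 0.05). The standard error is the fold change over the root of F. Alternatives included DESeq2 1.42.0, other scalings, no filter, a loess offset on loop length (span 0.3) and the replicate number as a block. Others took the replicate pair (1 and 2, or 3 and 4) as a term, fitted each pair alone or left out each library. No label names these pairs as batches. Loops were described one by one where they passed the threshold, had an anchor in VWF or CD9, or were among the 3 with the highest mean count; loops at other genes were described by a phrase each. Gene positions and upstream windows come from RefSeq tables of GRCh38.p14; CD9 matched 4 windows, and VWF matched 0. The members and lists were chosen with earlier results of these data known.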

Additional observations from a re-analysis of the deposited data

Results flagged for a closer look

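The change of loop22953, from the ANO2 body to the anchor before NTF3, differed between the time points: its log2 fold change at 72 h was 1.01 higher than at 6 h (edgeR adjusted p = 0.00023), with all 4 libraries at 72 h above all 4 at 6 h. For the 10 loops described one by one and tested, the 0 h and 6 h groups of 4 libraries, 20 in all, were searched for a library far from the rest by Dixon's criterion. It found 0, where chance gives about 1.0; the 72 h groups, with 3 samples, were not examined.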

How the results depend on the processing

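At 6 h the count of changed loops in the locus went from 0 to 1, loop22967 each time, in some alternatives. These were no filter on low counts, a replicate block, a term for the replicate pair and technical replicates as libraries. It ran from 0 to 1 when libraries were left out in turn. At 72 h it went from 5 to 3 within replicates 3 and 4, 3 at an adjusted p under 0.01, 1 with a fold change of at least 1.5 and 3 with both anchors in the window. It was 4 with total count scaling, DESeq2, the length correction, technical replicates as libraries and within replicates 1 and 2. With no filter and with replicates 3 and 4 summed it was 6, as loop22957 then passed. Leaving out libraries gave 4 to 6. Without 0 h replicate 1 it stayed at 5, but loop22957 passed and loop22963 did not. Between 6 h and 72 h it went from 1 to 0 with technical replicates as libraries and with both anchors in the window, as loop22953 then was not tested or not a member; leaving out libraries gave 1 to 2, with loop22964 added without 72 h replicate 1. Same-numbered libraries of different times deviated from their group means with correlations of 0.01457 to 0.1237, and other-numbered ones with -0.07381 to 0.04412. No label says what a shared number stands for. The replicate block gave 1, 5 and 1 calls in the 3 comparisons. The rise of loop22960 and the fall of loop22967 at 72 h passed in each alternative fit, with adjusted p up to 0.041 and 0.037, but neither reached a fold change of 1.5. Of the other named changes, 6 turned sign in 10 fits in all, none past the threshold before or after, and the cause was not tested: within replicates 3 and 4, loop22958 (-0.06) and loop22962 (-0.11) at 6 h and loop22961 from 6 h to 72 h (-0.01); within replicates 1 and 2, loop22962 at 72 h (0.21); and with libraries left out, loop22962 at 72 h (-0.16 to 0.01), loop22958 (-0.03 to 0.18) and loop22959 (-0.23 to 0.11) from 6 h to 72 h. The rise of loop22961 at 72 h passed with technical replicates as libraries (0.25, edgeR adjusted p = 0.043). Depth limits the weakest loops, such as loop22957 with 3 to 18 contacts a library.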
